A study of Mus musculus with 6 samples.

Results

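The genes described are those of the cytosolic ribosomal proteins, chosen by symbol from the deposited count table of a study of CT26 cells, a mouse colon carcinoma line. The rule takes symbols of the form Rpl or Rps followed by a number, with or without an a, x or y, together with Rplp0, Rplp1, Rplp2 and Rpsa. It leaves out rows with -ps in the symbol (pseudogenes) and the paralogs that end in l. It found 76 of the 57010 rows of the table, 46 of the large subunit and 30 of the small subunit, and all 76 passed the filter on low counts.

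RNA sequencing was done on CT26 cells with sgCdk10, a guide RNA named for Cdk10, the gene of cyclin-dependent kinase 10, and on CT26 cells with sgControl, the control guide. Each group held 3 libraries, and both groups are the same cell line with a guide. Total RNA was the starting material. The guide sequences, the number of guides, the form of Cas9, and whether the cells were pools or single clones were not given in the sources used here. The labels do not say whether libraries of 1 group stem from separate cultures; p-values therefore measure the spread between these 6 libraries, and that spread may be technical.

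Ribosomal proteins assemble with ribosomal RNA in the nucleolus into a small subunit, which reads the mRNA, and a large subunit, which joins amino acids. Their mRNAs are abundant in growing cells and start with a run of pyrimidines, the 5' terminal oligopyrimidine (TOP) motif, through which mTORC1 and LARP1 control their translation. Levels here are mRNA levels relative to the rest of the library; translation, ribosome number and RNA per cell were not measured, and fewer cells of a type and less RNA per cell cannot be told apart in bulk samples.

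The sequences around the annotated transcription start were searched for a run of pyrimidines at any place in a short window, which is wider than the TOP motif itself. RefSeq promoter entries on GRCm38.p6 matched 56 of the 76 members, with 66 start sites. The windows below run from 10 bases before the start to 20 bases from the start onward, 5′ to 3′ on the strand of the gene, with the longest run of C and T in capitals. The first 8 were chosen because they belong to members whose values are described below (Rps21 has 2 starts, of which 1 is shown), and the last, Rpl41, because it was the member with the highest level per kilobase.
Rps12, chr10:23787190-23787219, minus strand: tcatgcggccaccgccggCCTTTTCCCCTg
Rps27, chr3:90213629-90213658, minus strand: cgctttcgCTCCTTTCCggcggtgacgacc
Rps21, chr2:180257369-180257398, plus strand: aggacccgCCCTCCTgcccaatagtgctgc
Rps6, chr4:86857348-86857377, minus strand: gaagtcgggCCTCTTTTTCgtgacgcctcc
Rpl39, chrX:37085203-37085232, minus strand: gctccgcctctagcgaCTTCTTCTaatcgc
Rpl36a, chrX:134585644-134585673, plus strand: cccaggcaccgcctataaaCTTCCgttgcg
Rpl28, chr7:4792955-4792984, plus strand: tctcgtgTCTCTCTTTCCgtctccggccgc
Rplp2, chr7:141447641-141447670, plus strand: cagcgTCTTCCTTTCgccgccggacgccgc
Rpl41, chr10:128549149-128549178, minus strand: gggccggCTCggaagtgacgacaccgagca
The run of pyrimidines was 11 bases long in Rps12 and Rpl28, 10 in Rps6 and Rplp2, 9 in Rps27, 8 in Rpl39, 7 in Rps21, 5 in Rpl36a and 3 in Rpl41. It spanned the annotated start in Rps27, Rps21, Rps6, Rpl28 and Rplp2, whereas it began at base 9 after the start in Rps12, base 7 in Rpl39 and base 10 in Rpl36a, so it was not at the first base there. Among other members described below, the run was 13 bases long in Rps10, where it spanned the annotated start. It was 7 bases long in Rplp0, Rpl12 and Rpl11 and 3 in Rpl5 and Rps15. A run of at least 8 C or T in this window, on the strand of the gene, was present in 41.1% of the members with an entry (23 of 56) and in 13.0% of all genes with an entry. The share was 41.2% for large and 40.9% for small subunit members.

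The second set of windows shows CCGGAAG, a form of the core bound by ETS factors such as GABPA, in capitals, and was chosen for members that hold it beside the start.
Rpl11, chr4:136053374-136053403, minus strand: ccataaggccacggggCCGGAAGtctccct
Rpl31, chr1:39367841-39367870, plus strand: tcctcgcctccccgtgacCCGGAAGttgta
Rpl26, chr11:68901556-68901585, plus strand: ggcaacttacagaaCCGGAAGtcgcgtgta
On either strand, CCGGAAG lay between 250 bases before and 50 after the start in 41.1% of the members with an entry, against 9.93% of all genes with one. AAGATGG, a form of the core bound by YY1, was present in 16.1% of these members and 7.28% of all genes. A match is a description of letters and not a bound site. The median log2 fold change of these members in sgCdk10 was -0.09 with the pyrimidine run and -0.11 without it, and the test called 14 of 23 and 23 of 33 of them lower. With and without CCGGAAG the medians were -0.12 and -0.10.

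Library totals lay between 17532202 and 19258309 counts, so 3 counts, the floor used for a single library, correspond to 0.156 to 0.171 CPM. CPM divides counts by library totals of the tested genes after TMM adjustment. Cdk10 itself had 11.3, 12.9 and 10.5 CPM in sgCdk10 libraries 1 to 3, against 21.5, 19.5 and 20.1 CPM in sgControl libraries 1 to 3. The groups did not overlap, and its log2 fold change was -0.82 (SE 0.08), with adjusted p = 8.4e-09 by the quasi-likelihood test of edgeR (Benjamini-Hochberg adjustment, also for all p-values below). Of 10 colon epithelial markers, 3 passed the filter on low counts: Krt18 and Krt20 were called higher in sgCdk10 and Muc2 lower (not called without sgControl library 3), while Epcam was at 0 counts in all 6 libraries. The whole list summed to 58.0 to 59.4 CPM in sgCdk10 and 37.0 to 40.8 CPM in sgControl. Of 7 leukocyte markers only Cd68 passed the filter, and the list summed to 12.7 to 13.5 CPM in sgCdk10 and 8.7 to 8.94 CPM in sgControl, with Cd3e and Adgre1 at 0 counts in every library. No endothelial marker of 4 passed the filter, at 0.0569 to 0.221 CPM in sgCdk10 and 0.0565 to 0.226 CPM in sgControl. Of 5 fibroblast markers, Col1a1, Col1a2 and Pdgfra were called higher in sgCdk10, of which Col1a2 turned to -0.02 on the log2 scale and Pdgfra alone was called after correcting for GC and length. The list summed to 1563.9 to 1585.6 CPM in sgCdk10 and 1360.9 to 1512.7 CPM in sgControl. The part of these differences in the results below was not tested.

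Ribosomal protein mRNAs were slightly lower in sgCdk10 cells, in both subunits, and how many passed the test depended on the treatment of transcript GC and length. Of the 76 genes, 50 were called lower in sgCdk10 and 0 higher, at an adjusted p under 0.05 by the quasi-likelihood test of edgeR, adjusted over 13442 genes. Over all tested genes the same rule called 20.4% lower and 22.1% higher, or 42.5% in either direction. The excess of lower calls over the background was not present after correcting for GC and length: 17 of 76 were then called lower, against 23.0% of all tested genes. Called higher were then 0 members, against 2729 of the 13442 tested genes. The median log2 fold change of the members was -0.038. With that correction and without sgControl library 3, 56 of 76 were called lower, against 23.5%. Without the correction the differences were small. The median log2 fold change of the members was -0.105, or 0.93-fold, against -0.003 for all tested genes, and 74 of 76 were negative. Called members lay between 0.825-fold and 0.954-fold, and only 8 of them fell by at least 0.2 on the log2 scale.

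The share of called members can be set beside genes of similar level and transcript length. Among the 2408 tested genes at 100 CPM or more, 31.4% were called lower and 28.3% higher. Among the 2974 tested genes with a principal transcript under 1500 bases, 19.7% were called lower and 8.98% higher, and their median log2 fold change was -0.086. Ribosomal protein transcripts are short. Across the 76 members, which share the libraries, log2 transcript length was set against the log2 fold change. With the longest principal transcript, Pearson r was 0.25 and Spearman rho 0.26, or 0.29 and 0.28 without sgControl library 3. With the shortest principal transcript they were 0.14 and 0.14, or 0.19 and 0.18 without that library.

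The subunits had the same median. Of the 46 large subunit genes 29 were called lower (63.0%), and of the 30 small subunit genes 21 (70.0%). The log2 fold change had a median of -0.105 in each. The shares of all counts held by the 76 genes were 4.47%, 4.44% and 4.42% in sgCdk10 libraries 1 to 3, against 4.79%, 4.85% and 4.60% in sgControl libraries 1 to 3. The groups did not overlap, and sgControl library 3 was the lowest of the controls. The means were 4.444% ± 0.025 in sgCdk10 and 4.747% ± 0.13 in sgControl (SD, n = 3 each), a difference of -0.303 percentage points, and of -0.376 without sgControl library 3.

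**Figure D1:**
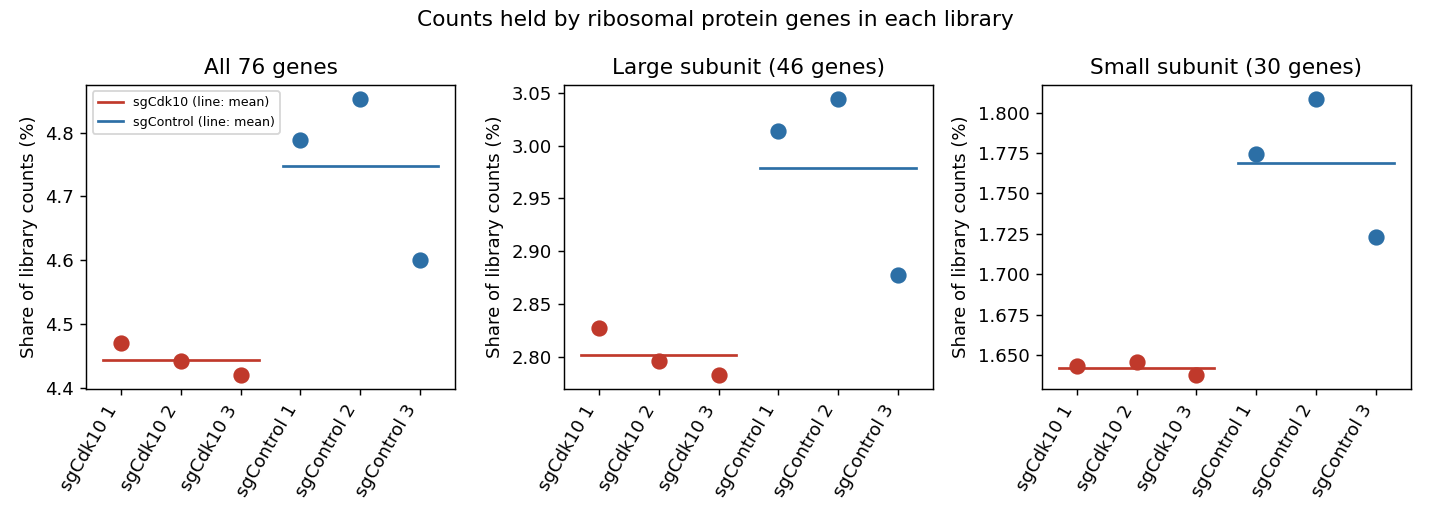
Share of each library's counts held by the 76 genes, the 46 large subunit genes and the 30 small subunit genes, in percent; each dot is a library, lines are group means, and the vertical axes do not start at 0. For the 76 genes the 3 sgCdk10 libraries lie between 4.42% and 4.47%, below the lowest sgControl library, library 3, at 4.60%.

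Split by subunit, the large subunit genes held 2.83%, 2.80% and 2.78% of the counts in sgCdk10 libraries 1 to 3, against 3.01%, 3.04% and 2.88% in sgControl libraries 1 to 3. The small subunit genes held 1.64%, 1.65% and 1.64% in sgCdk10 libraries 1 to 3, against 1.77%, 1.81% and 1.72% in sgControl libraries 1 to 3. In both subunits every sgCdk10 library lay below every sgControl library. The ratio of large to small subunit counts averaged 1.706 ± 0.012 in sgCdk10 and 1.684 ± 0.014 in sgControl (SD, n = 3 each), a difference of 0.022 that was reduced to 0.0151 without sgControl library 3. The lowest sgCdk10 ratio was 1.69866 and the highest sgControl ratio 1.6985, so the libraries of the groups nearly met.

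**Figure D2:**
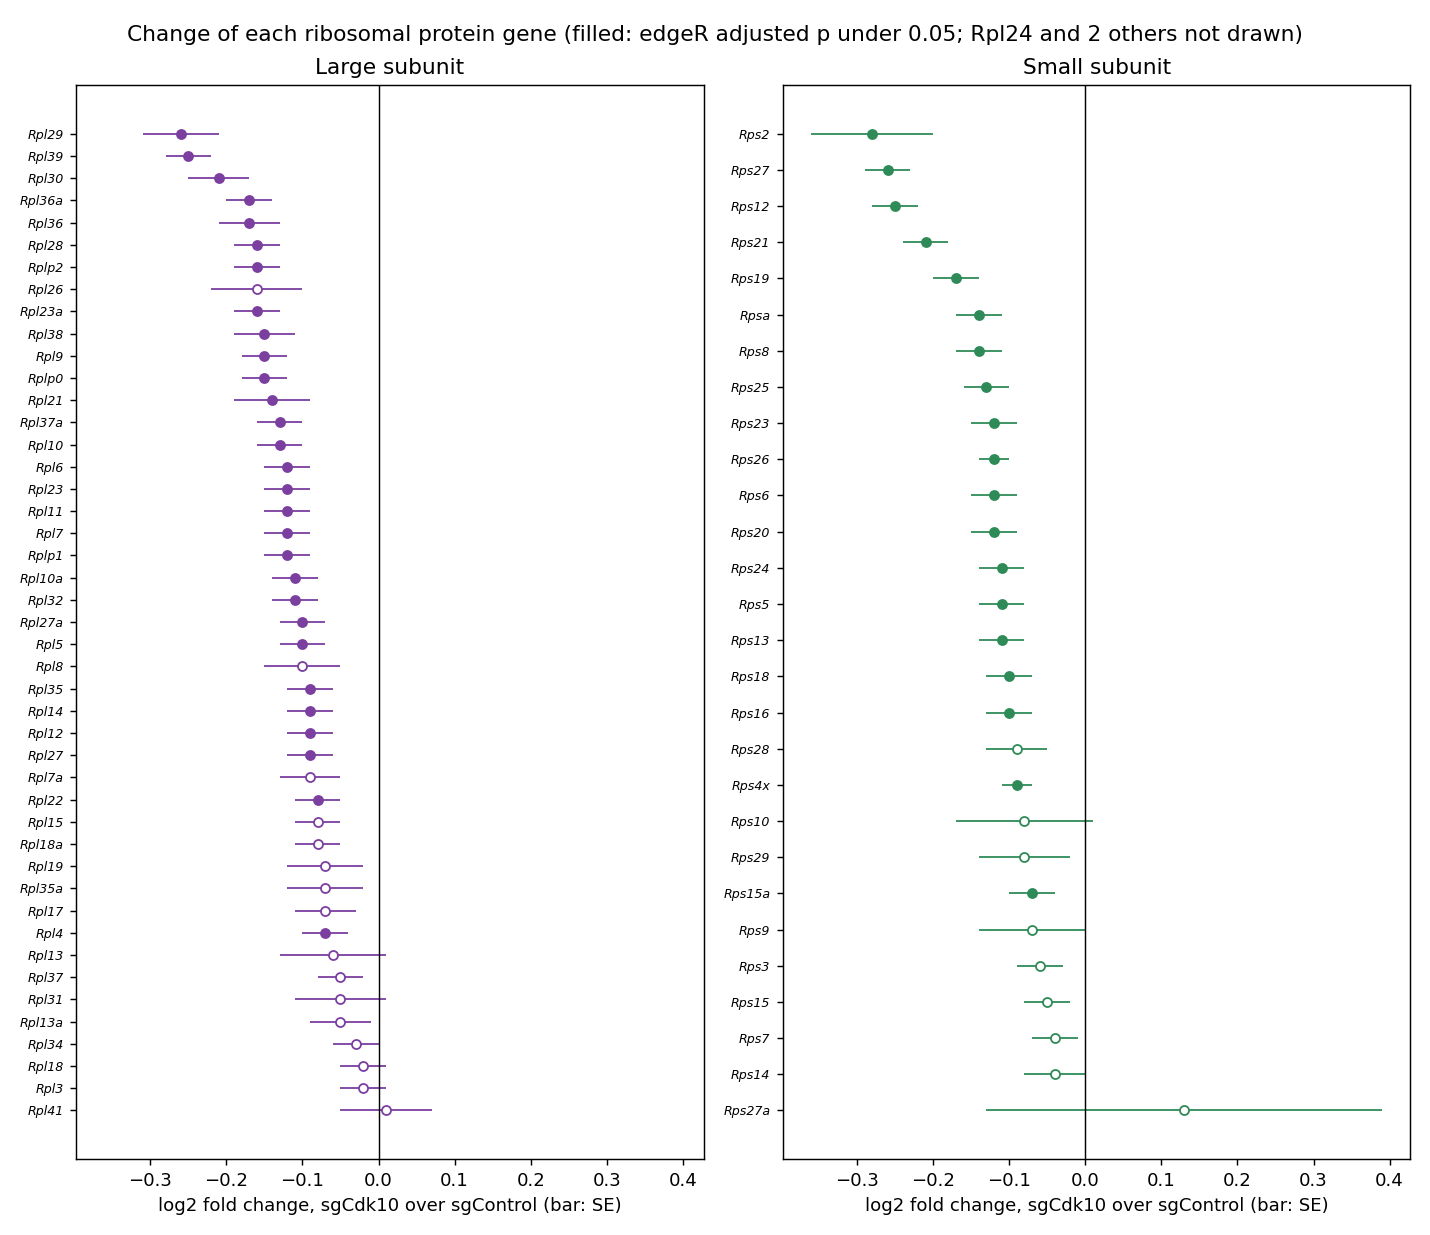
Log2 fold change of each gene, sgCdk10 over sgControl, with its standard error, by subunit; filled points have an edgeR adjusted p under 0.05. Rpl24 is not drawn because its error was larger than that of the other genes, and 2 members are left out. Nearly all points lie left of 0, from -0.28 for Rps2 to 0.13 for Rps27a.

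Of the 5 small subunit members with the smallest p-values, 4 are described here, Rps12, Rps27, Rps21 and Rps19. Rps12 (ENSMUSG00000061983, chr10:23785183-23787275, minus strand), a protein of the head of the small subunit, had 423, 424 and 422 CPM in sgCdk10 libraries 1 to 3, against 483.5, 504 and 520.2 CPM in sgControl libraries 1 to 3. The groups did not overlap, and the log2 fold change was -0.25 (SE 0.03), with edgeR adjusted p = 1.4e-07. Rps27 (ENSMUSG00000090733, chr3:90212522-90213651, minus strand), a zinc-finger protein of the small subunit, had 211, 211 and 199 CPM in sgCdk10 libraries 1 to 3, against 241, 249 and 255 CPM in sgControl libraries 1 to 3. Its log2 fold change was -0.26 (SE 0.03), with edgeR adjusted p = 3.1e-07, and every sgCdk10 library again lay below every sgControl library.

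Rps21 (ENSMUSG00000039001, chr2:180257377-180258445, plus strand), also of the small subunit, had 183, 184 and 176 CPM in sgCdk10 libraries 1 to 3, against 203, 214 and 211 CPM in sgControl libraries 1 to 3. The groups did not overlap and the log2 fold change was -0.21 (SE 0.03), with edgeR adjusted p = 6.8e-06. Rps19 (ENSMUSG00000040952, chr7:24884371-24889806, plus strand), the gene most often mutated in Diamond-Blackfan anaemia, a red cell aplasia, had 299, 293 and 288 CPM in sgCdk10 libraries 1 to 3, against 332.5, 326 and 332 CPM in sgControl libraries 1 to 3. The change in log2 was -0.17 (SE 0.03), with edgeR adjusted p = 1.9e-05, and the groups were apart. In these 4 genes, chosen for their p-values, sgControl library 3 lay above every sgCdk10 library, against 5228 of the 13442 tested genes.

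In the large subunit the 5 smallest p-values were those of Rpl39, Rpl36a, Rpl30, Rpl28 and Rpl23a. Rpl39 (ENSMUSG00000079641, chrX:37082520-37085402, minus strand), a small protein that lines the exit tunnel of the nascent chain, had 117, 117 and 112 CPM in sgCdk10 libraries 1 to 3, against 134, 139 and 140.4 CPM in sgControl libraries 1 to 3. The groups did not overlap, and the log2 fold change was -0.25 (SE 0.03), with edgeR adjusted p = 1.2e-06. Rpl36a (ENSMUSG00000079435, chrX:134585654-134588062, plus strand), a protein near the exit site for tRNA, had 299, 294 and 303 CPM in sgCdk10 libraries 1 to 3, against 338, 341 and 329 CPM in sgControl libraries 1 to 3. It fell by 0.17 on the log2 scale (SE 0.03), with edgeR adjusted p = 2.2e-05. Rpl30 (ENSMUSG00000058600, chr15:34440505-34443640, minus strand), a large subunit protein, had 104.5, 105.5 and 100.4 CPM in sgCdk10 libraries 1 to 3, against 115, 119 and 126 CPM in sgControl libraries 1 to 3. On the log2 scale it changed by -0.21 (SE 0.04), with edgeR adjusted p = 4.6e-05.

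Rpl28 (ENSMUSG00000030432, chr7:4792874-4795066, plus strand), a large subunit protein without a bacterial counterpart, had 856, 822.5 and 825 CPM in sgCdk10 libraries 1 to 3, against 938, 969 and 899 CPM in sgControl libraries 1 to 3. The groups did not overlap and the log2 fold change was -0.16 (SE 0.03), with edgeR adjusted p = 5.3e-05. Rpl23a (ENSMUSG00000058546, chr11:78180932-78183584, minus strand), which sits beside the exit of the tunnel, had 265, 275 and 282 CPM in sgCdk10 libraries 1 to 3, against 309.8, 305 and 307 CPM in sgControl libraries 1 to 3. It fell by 0.16 on the log2 scale (SE 0.03), with edgeR adjusted p = 5.8e-05. None of these 5 genes, which were chosen for their p-values, had a sgControl library at or below a sgCdk10 library. Among all tested genes this held for 24.8%. Rpl30 and Rpl39 had the lowest levels of these 9 genes per kilobase of transcript, at 195.9 and 207 CPM per kb.

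The stalk of the large subunit, through which elongation factors are recruited and switched, is formed by Rplp0, Rplp1 and Rplp2 on Rpl12. All 4 were called lower in sgCdk10, against 20.4% of all tested genes, and 1 of them, Rplp0, after correcting for GC and length. Rplp0 (ENSMUSG00000067274, chr5:115559467-115563727, plus strand) had 1663, 1661 and 1584 CPM in sgCdk10 libraries 1 to 3, against 1805.5, 1786 and 1838 CPM in sgControl libraries 1 to 3. Its log2 fold change was -0.15 (SE 0.03), with edgeR adjusted p = 7.7e-05. Rplp1 (ENSMUSG00000007892, chr9:61913284-61914542, minus strand) had 1065, 1034 and 1054.5 CPM in sgCdk10 libraries 1 to 3, against 1137, 1169.8 and 1111 CPM in sgControl libraries 1 to 3, and its groups did not overlap. The log2 fold change was -0.12 (SE 0.03), with edgeR adjusted p = 0.000889, but 0.01 after correcting for GC and length.

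Rplp2 (ENSMUSG00000025508, chr7:141447370-141451585, plus strand) had 408, 401 and 402 CPM in sgCdk10 libraries 1 to 3, against 460.0, 463 and 429 CPM in sgControl libraries 1 to 3. The log2 fold change was -0.16 (SE 0.03), with edgeR adjusted p = 0.000116. Rpl12 (ENSMUSG00000038900, chr2:32961559-32965345, plus strand), which anchors the stalk base, had 948, 941 and 929.7 CPM in sgCdk10 libraries 1 to 3, against 1001, 1013 and 982 CPM in sgControl libraries 1 to 3. It changed by -0.09 (SE 0.03) on the log2 scale, with edgeR adjusted p = 0.00642. In each of the 4 genes every sgCdk10 library was below every sgControl library, against 24.8% of all tested genes.

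Rpl5 and Rpl11 bind the 5S ribosomal RNA as one particle, and outside the ribosome they bind MDM2. Rpl5 (ENSMUSG00000058558, chr5:107900502-107909005, plus strand) had 956, 960.3 and 956 CPM in sgCdk10 libraries 1 to 3, against 1034, 1047 and 998 CPM in sgControl libraries 1 to 3. It fell by 0.10 on the log2 scale (SE 0.03), with edgeR adjusted p = 0.00273. Rpl11 (ENSMUSG00000059291, chr4:136028265-136053428, minus strand) had 393, 399 and 407 CPM in sgCdk10 libraries 1 to 3, against 443, 451 and 412 CPM in sgControl libraries 1 to 3. The fitted log2 change was -0.12 (SE 0.03), with edgeR adjusted p = 0.00254. In both genes every sgCdk10 library lay below every sgControl library, against 24.8% of all tested genes. The control closest to sgCdk10 was sgControl library 3.

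Rps6 (ENSMUSG00000028495, chr4:86854660-86857412, minus strand), the small subunit protein phosphorylated by the S6 kinases, had 846, 828 and 874 CPM in sgCdk10 libraries 1 to 3, against 929, 961 and 879 CPM in sgControl libraries 1 to 3. This was a log2 fold change of -0.12 (SE 0.03), with edgeR adjusted p = 0.00309. The highest sgCdk10 library, library 3, lay just under sgControl library 3.

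By function, the counts called lower stand against 20.4% of all tested genes. Of 4 genes of the peptidyl transferase centre and subunit joining, 1 was called lower, and of 8 genes of the exit tunnel 4 were. Of 6 genes of the decoding centre and the mRNA channel, 3 were called lower. Of 4 genes whose proteins are ubiquitinated on collided ribosomes, 2 were called lower, and of 9 genes linked to Diamond-Blackfan anaemia 6 were. After correcting for GC and length, these counts were 0, 1, 0, 1 and 3 in the same order, against 23.0% of all tested genes. None of these groups held a gene called higher, against 22.1%. The 4 members on the X chromosome, Rpl10, Rpl36a, Rpl39 and Rps4x, were all called lower, against 20.4% of all tested genes, with a median log2 fold change of -0.15. After correcting for GC and length 1 of the 4 was called and the median was -0.058.

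The largest fall in fold was that of Rps2 (ENSMUSG00000044533, chr17:24718116-24721929, plus strand), a protein of the mRNA entry site. It had 213, 210.0 and 209 CPM in sgCdk10 libraries 1 to 3, against 286, 236 and 244 CPM in sgControl libraries 1 to 3, with a log2 fold change of -0.28 (SE 0.08) and edgeR adjusted p = 0.0433. Its standard error was above those of the 9 genes described for their p-values, and sgControl library 1 was the highest library. Rps2 was lost as a call without sgControl library 3, at edgeR adjusted p = 0.0991, and after correcting for GC and length, at edgeR adjusted p = 0.103. Its pseudogene row Rps2-ps10 held 782, 767 and 754 CPM in sgCdk10 libraries 1 to 3, against 892.5, 864 and 710.5 CPM in sgControl libraries 1 to 3, above the level of Rps2 itself, so reads could be divided between the rows in a way the table does not show.

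**Figure D3:**
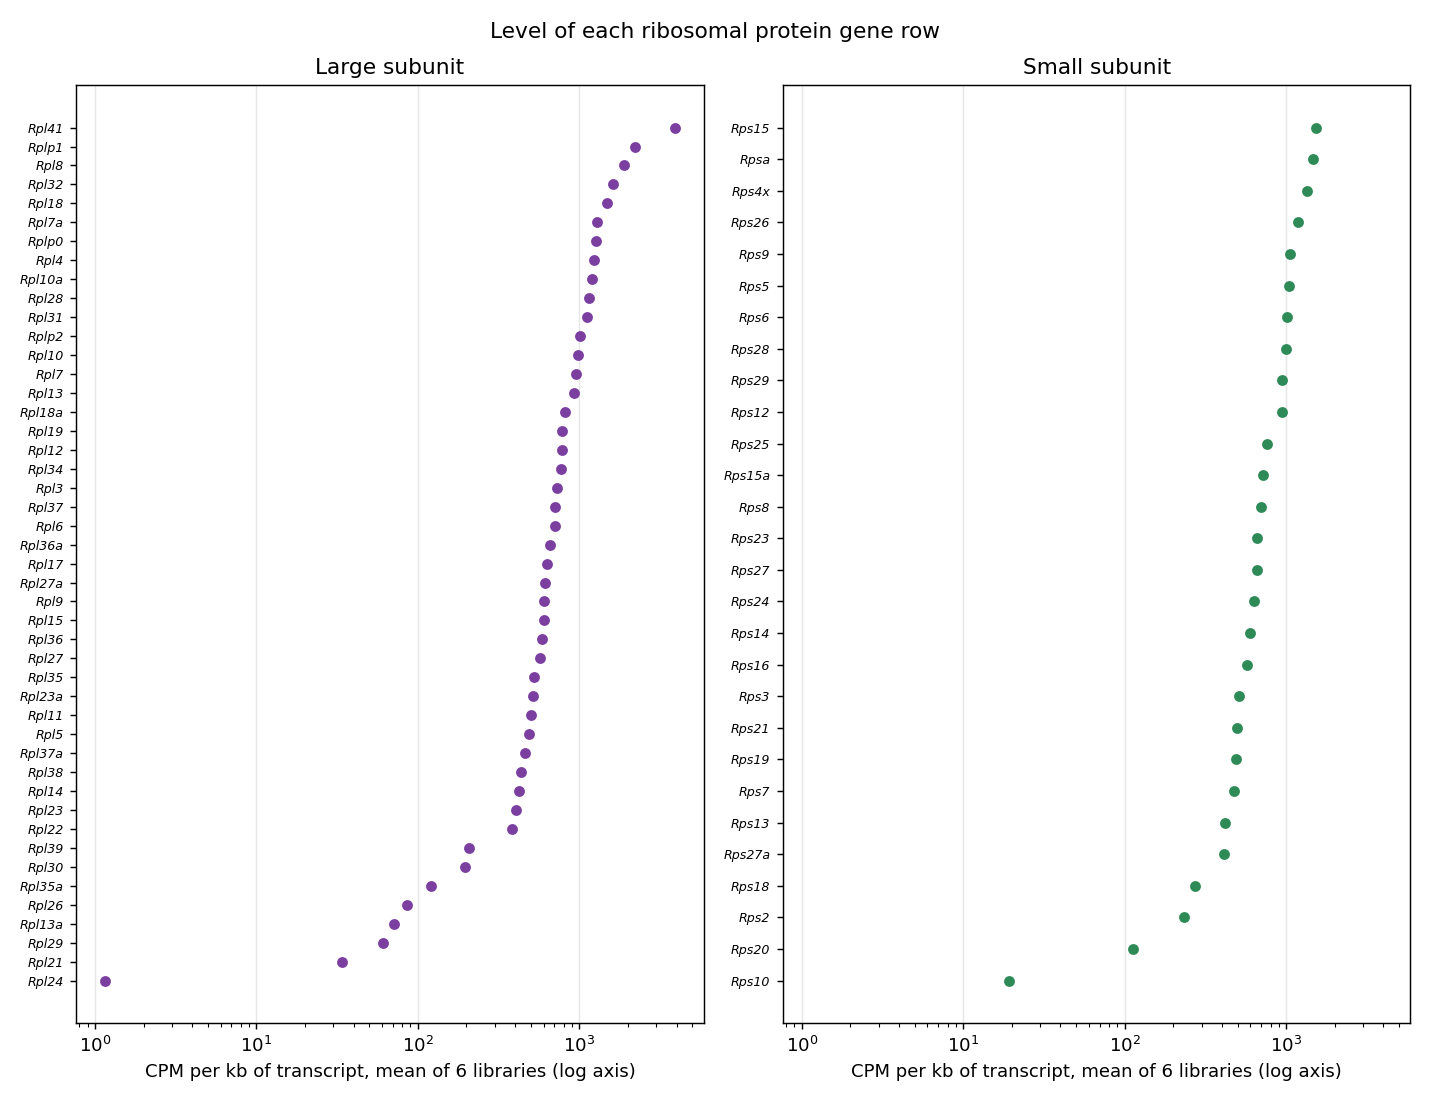
Level of each gene in CPM per kilobase of its shortest principal transcript, as the mean of 6 libraries, on a log axis, by subunit, with 2 members left out. Rpl41 stands highest at 3921 CPM per kb and Rpl24 lowest at 1.15, with most genes above 200.

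Levels per kilobase of transcript covered a wide range. The median was 658 CPM per kb over all members, 643 in the large and 660.2 in the small subunit. Rpl41 (ENSMUSG00000093674, chr10:128548114-128549305, minus strand), the shortest ribosomal protein, had the highest level per kilobase, 3921 CPM per kb. It had 1737, 1695 and 1723 CPM in sgCdk10 libraries 1 to 3, against 1779.5, 1798 and 1548 CPM in sgControl libraries 1 to 3. The groups overlapped through sgControl library 3, and the log2 fold change was 0.01 (SE 0.06), with edgeR adjusted p = 0.929. Without sgControl library 3 it was -0.06, with edgeR adjusted p = 0.00577, and with upper-quartile scaling it was -0.01.

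Rps15 (ENSMUSG00000063457, chr10:80292453-80294114, plus strand), a protein of the small subunit head, had the highest small subunit level per kilobase, 1529 CPM per kb. It had 762, 742 and 750.0 CPM in sgCdk10 libraries 1 to 3, against 773, 816 and 743 CPM in sgControl libraries 1 to 3. The groups overlapped, and the log2 fold change of -0.05 (SE 0.03) did not pass the test, with edgeR adjusted p = 0.192. After correcting for GC and length it was 0.08.

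At the other end were Rpl24 and Rps10. Rpl24 (ENSMUSG00000098274, chr16:55966275-55971435, plus strand), which forms a bridge between the subunits, held 10, 11 and 18 counts in sgCdk10 libraries 1 to 3, against 14, 12 and 20 counts in sgControl libraries 1 to 3. That is 1.15 CPM per kb, and the log2 fold change of -0.27 (SE 0.32) did not pass the test, with edgeR adjusted p = 0.528. Rps10 (ENSMUSG00000052146, chr17:27630418-27636669, minus strand), a protein ubiquitinated when ribosomes collide, had 9.61, 8.31 and 9.98 CPM in sgCdk10 libraries 1 to 3, against 10.1, 9.95 and 9.49 CPM in sgControl libraries 1 to 3, or 19.2 CPM per kb. Its log2 fold change was -0.08 (SE 0.09), with edgeR adjusted p = 0.537. In the annotation each gene overlaps a longer gene on the same strand, Gm28037 for Rpl24 and RPS10-NUDT3 for Rps10, each at 0 counts in every library. Rps10-ps2, a pseudogene row, held 166, 162 and 163.5 CPM in sgCdk10 libraries 1 to 3, against 169.9, 181 and 176 CPM in sgControl libraries 1 to 3, far above Rps10. How the authors' counting treated reads that match several rows is not given in the sources used here, so the levels of these rows are uncertain. In all 9 members lay under 200 CPM per kb, a count that also depends on the transcript length used. Among them was Rps20, at 112.2 CPM per kb of a principal transcript of 3706 bases. Its mean level was 399.4 CPM in sgCdk10 and 432.5 CPM in sgControl.

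Rps27a (ENSMUSG00000020460, chr11:29545846-29548109, minus strand), which is made as a fusion with ubiquitin, was the most variable member in the controls. It had 278, 304 and 238.5 CPM in sgCdk10 libraries 1 to 3, against 216, 337 and 198 CPM in sgControl libraries 1 to 3. The groups overlapped, and the log2 fold change was 0.13 (SE 0.26), with edgeR adjusted p = 0.742, or -0.02 without sgControl library 3. The 26 members not called lower included 25 whose groups overlapped. In 51 members, 30 large and 21 small, all 3 sgCdk10 libraries lay below all 3 sgControl libraries, which held for 24.8% of all tested genes. No member had all sgCdk10 libraries above all controls, against 26.6% of tested genes.

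sgControl library 3 was examined apart. Relative to the mean of sgControl libraries 1 and 2 the median log2 difference was -0.057, -0.049 in the large and -0.067 in the small subunit. It was the lowest control for 47 members and the highest for 13, against 5125 and 4961 of the 13442 tested genes. It lay above all sgCdk10 libraries for 55 members and below all of them for 16, against 5228 and 5297 tested genes. sgControl libraries 1 and 2 both lay above every sgCdk10 library for 68 of 76 members, against 30.3% of all tested genes. The difference ranged from -0.48 for Rps27a to 0.59 for Rpl24.

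The median SD within a group, on the log2 scale, was 0.023 in sgCdk10 and 0.05 in sgControl, and 0.024 for sgControl libraries 1 and 2 alone. sgCdk10 library 1 lay above sgControl library 1 for 3 members and above sgControl library 2 for 0, but above sgControl library 3 for 20. Across the 76 members, the log2 level per kilobase and the deviation of sgControl library 3 had a Pearson r of -0.61 and a Spearman rho of -0.42. Without Rpl24, at 10 to 20 counts the extreme on both axes, they were -0.37 and -0.4. This is a description over genes that share the libraries, not a test.

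**Figure D4:**
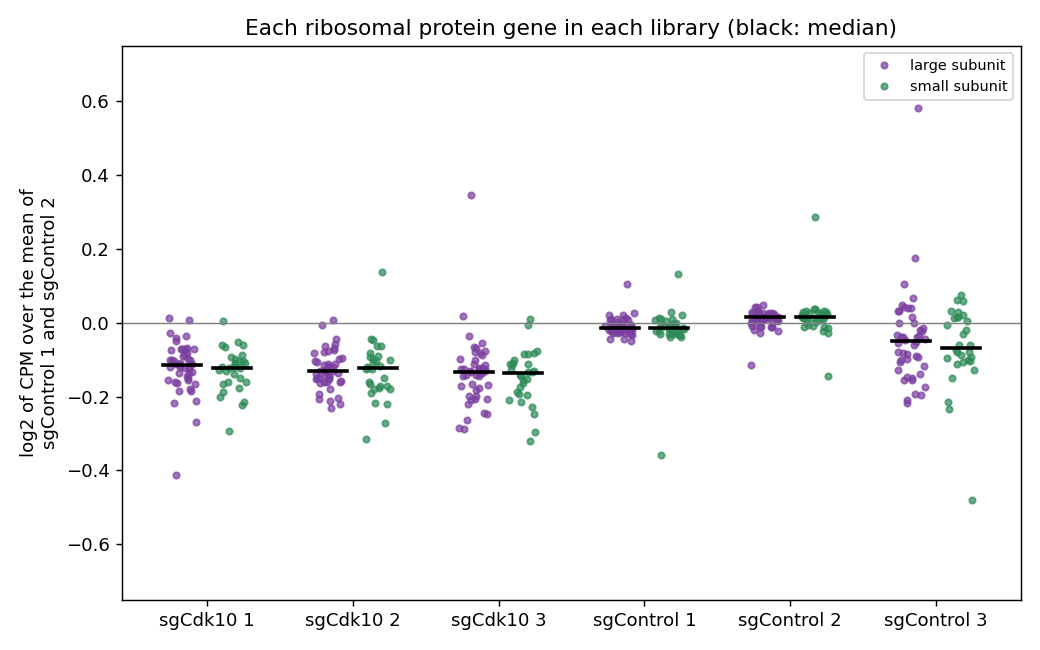
Log2 of each gene's CPM over its mean in sgControl libraries 1 and 2, in each library, by subunit; black bars are medians. The sgCdk10 medians lie below those of sgControl library 3, which are at -0.049 for the large and -0.067 for the small subunit.

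Without sgControl library 3, edgeR called 67 of 76 members lower (41 large, 26 small), against 22.2% of all tested genes. It called 0 members higher, against 3007 of the 13442 genes tested with 6 libraries. The median log2 fold change of the members was -0.13. All 76 were then negative. Of the 50 genes called with 6 libraries 49 were called again, and 18 more were called, among them Rpl41, Rpl3, Rpl8, Rps14 and Rps9.

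The -ps rows were high in sgControl library 3. The table held 298 of them and 76 passed the filter. Of these 76 rows, 11 (14.5%) were called lower in sgCdk10 and 0 higher, against 20.4% and 22.1% of all tested genes. Their median log2 fold change was -0.475, or -0.108 without sgControl library 3. sgControl library 3 was the highest of 6 for 64 rows, against 2769 of the 13442 tested genes. In that library the median of the -ps rows was 0.801 above the other controls on the log2 scale. For 753 other processed pseudogenes that were tested, the median was 0.194. The pseudogene rows held 0.213%, 0.213% and 0.207% of the counts in sgCdk10 libraries 1 to 3, against 0.232%, 0.231% and 0.243% in sgControl libraries 1 to 3. Adding them to the members gave shares of 4.655% ± 0.028 in sgCdk10 and 4.983% ± 0.12 in sgControl (SD, n = 3 each). Every sgCdk10 library again lay below every sgControl library. The part of pseudogene reads in the members' values was not tested.

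A loess correction for GC and length, fitted in each library over all tested genes, lowered the counts. With it 17 of 76 members were called lower (9 large, 8 small), against 23.0% of all tested genes. The median log2 fold change of the members was -0.038. Called higher were 0 members, against 2729 of the 13442 tested genes. All 17 members called lower were among the 50. The number of negative members was 57. With the correction and without sgControl library 3 the count was 56 (34 large, 22 small), the median -0.094 and the share of all tested genes 23.5%. Of these 56, 45 were among the 50. Of the 16 genes described above for their p-value or as stalk, 5S or Rps6 genes, the correction kept the call for Rps12, Rps19, Rpl39, Rpl30, Rpl28, Rplp0 and Rpl5, and ended it for Rps27, Rps21, Rpl36a, Rpl23a, Rplp1, Rplp2, Rpl12, Rpl11 and Rps6. With the correction and without sgControl library 3 all 16 were called lower. Tested genes with a transcript under 1500 bases had medians of -0.017 with the correction and -0.031 with the correction and without sgControl library 3.

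**Figure D5:**
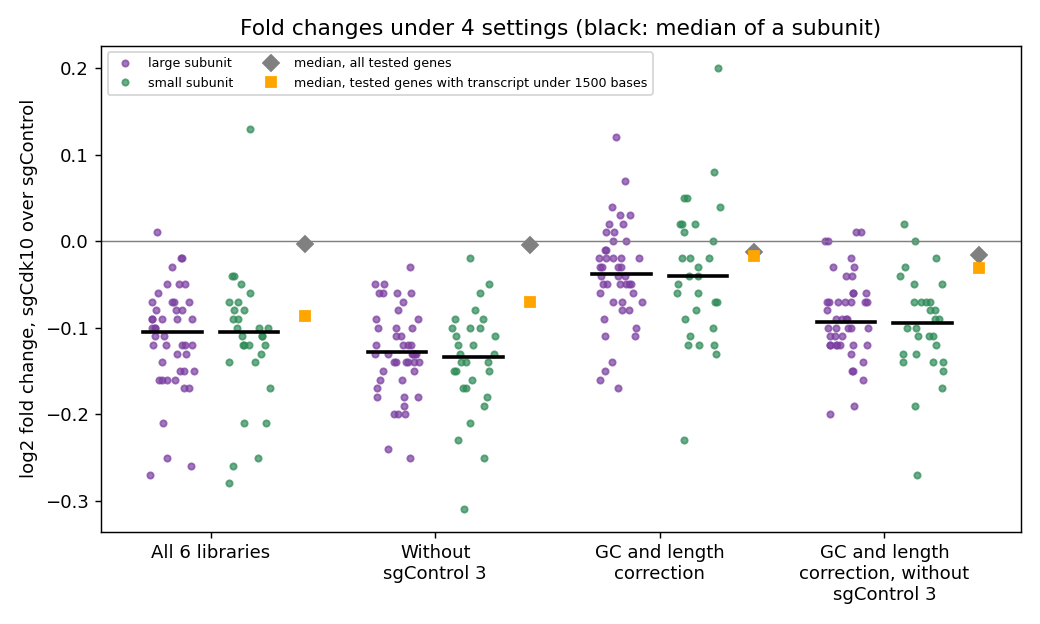
Log2 fold change of each gene, sgCdk10 over sgControl, under 4 settings, by subunit; black bars are subunit medians, grey diamonds the median of all tested genes and orange squares that of tested genes with a principal transcript under 1500 bases. The medians of all members are -0.105 and -0.13 without a correction, with 6 libraries and without sgControl library 3, against -0.038 and -0.094 with it.

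Other genes of the ribosome and its supply were read from lists. Of 4 ribosome genes that the rule leaves out, 1 was called lower, against 20.4% of all tested genes. Rps3a1, a small subunit protein, had 1459, 1413 and 1450.5 CPM in sgCdk10 libraries 1 to 3, against 1516, 1579 and 1488.5 CPM in sgControl libraries 1 to 3, a log2 fold change of -0.08 (SE 0.03) and edgeR adjusted p = 0.013, which was 0.752 after correcting for GC and length. Fau, which also encodes a ubiquitin-like protein, and Rack1, a scaffold on the small subunit, had log2 fold changes of -0.03 and -0.04 and did not pass the test. Of 8 paralog rows 6 were tested and 2 called lower, against 20.4% of all tested genes. These were Rps27l at -0.18 (SE 0.04) and Rps27rt at -0.44 (SE 0.13) on the log2 scale. Rps27rt was at -0.27 without sgControl library 3, and after correcting for GC and length Rps27l was at -0.08, with edgeR adjusted p = 0.0635. The third by p-value, Rpl39l, was at -0.07 (SE 0.03) and did not pass.

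Of 15 genes for translation factors and other proteins with TOP mRNAs, 4 were called lower and 0 higher, against 20.4% and 22.1% of all tested genes, with a median log2 fold change of -0.036. After correcting for GC and length 6 were called lower and 3 higher, against 3097 and 2729 of the 13442 tested genes. The 3 smallest p-values were those of Npm1, a nucleolar chaperone, at a log2 fold change of -0.19 (SE 0.03), Hnrnpa1, an RNA-binding protein, at -0.15 (SE 0.03), and Eif3f, a subunit of initiation factor eIF3, at -0.09 (SE 0.03). Of 10 chaperones and importins of ribosomal proteins, 3 were called lower and 1 higher, against the same 20.4% and 22.1%. After that correction 5 were called lower and 1 higher, against the same 3097 and 2729 tested genes. Ipo7, an import receptor, was higher with a log2 fold change of 0.26 (SE 0.03). Tsr2, the chaperone of Rps26, was lower at -0.31 (SE 0.05), and Heatr3, which carries Rpl5, at -0.16 (SE 0.03).

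Of 7 regulators of TOP mRNAs, 2 were called lower and 1 higher, against 20.4% and 22.1% of all tested genes. After correcting for GC and length 5 were called lower and 0 higher, against 3097 and 2729 of the 13442 tested genes. These and the next genes are named outside the rule, after their values were seen. Eif4ebp1, the binding protein of the cap factor eIF4E that mTORC1 phosphorylates, had 266, 249 and 265.5 CPM in sgCdk10 libraries 1 to 3, against 342, 348 and 317 CPM in sgControl libraries 1 to 3. Its log2 fold change was -0.37 (SE 0.04), with edgeR adjusted p = 5.2e-08. Rps6kb2, an S6 kinase, was lower at -0.22 (SE 0.05) and Mtor higher at 0.11 (SE 0.03), but Mtor was at -0.03 after correcting for GC and length, with edgeR adjusted p = 0.398. Of 5 transcription factors tied to these promoters, Yy1 was higher at 0.31 (SE 0.03) and Gabpa at 0.09 (SE 0.04), and Gabpb1, Sp1 and Myc did not pass the test. Gabpa, with edgeR adjusted p = 0.0374, was lost as a call with DESeq2, at adjusted p = 0.147, and after correcting for GC and length, at edgeR adjusted p = 0.108. Of 77 tested genes of mitochondrial ribosomal proteins, 28 were called lower and 1 higher, against 20.4% and 22.1% of all tested genes. Their median log2 fold change was -0.089, beside -0.086 for tested genes with a principal transcript under 1500 bases. After correcting for GC and length 21 were called lower and 4 higher, against 3097 and 2729 of the 13442 tested genes.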

How the data were processed

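RNA sequencing covered 3 sgCdk10 and 3 sgControl libraries of CT26 cells, with groups and replicate numbers from the titles. The authors deposited 1 table of raw counts per gene, not normalized, with Ensembl identifiers. Per the submitters' processing notes, HISAT2 2.2.1, featureCounts 2.0.3, DESeq2 1.40.2 and mm10 were used, with no settings. The annotation release and strand setting were not given in the sources used here, so reads of overlapping genes, paralogs and pseudogenes cannot be separated with certainty. Symbols and coordinates are from GENCODE M21 on GRCm38, and start-site sequences from RefSeq on GRCm38.p6.

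Genes were kept by filterByExpr (minimum count 10, minimum total 15), scaled by TMM and tested with the quasi-likelihood test of edgeR 4.0.16 in R 4.3.3, with robust dispersions and group as the only term; p-values were adjusted by Benjamini-Hochberg over 13442 genes and called at 0.05. Positive log2 fold changes are higher in sgCdk10. Levels per kilobase use the shortest principal transcript. The floor covers counting error only, whereas the standard errors come from the edgeR fit and include the spread between libraries. The steps were also run on simulated data. The outcome of that run is not given here, and no result above rests on it. Alternatives were other scalings, filters and dispersions, DESeq2 1.42.0, limma-voom 3.58.1, a replicate block, a GC and length loess (span 0.5) and leaving out each library. The correction without sgControl library 3 was added after seeing the data.

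The members and lists were chosen with earlier results of these data known. Values in every library are given for the 5 members of each subunit with the smallest p, the highest and lowest per kilobase, the stalk and 5S genes and Rps6; Rps2, Rps27a and Rps10-ps2 were added after their values were seen. Some genes that this rule names are not reported here. Of other lists, the 3 genes with the smallest p are named.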

Additional observations from a re-analysis of the deposited data

How the results depend on the processing

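The count of members called lower was 50. Under every alternative run 0 members were called higher, against 22.1% of all tested genes in the main run. The count called lower stayed between 48 and 57 with other scalings, filters, dispersions, DESeq2 and limma-voom. It lay between 42 and 67 when single libraries were left out, with 67 without sgControl library 3. It was 17 with the GC and length correction. The correction is fitted on length and GC, and the cause of the lower count was not tested further. With upper-quartile scaling the median log2 fold change was -0.125 for all members, -0.124 for the large and -0.125 for the small subunit. With the GC and length correction it was -0.038, -0.038 and -0.04. Leaving out single libraries gave medians from -0.13 to -0.087 for all members, -0.128 to -0.086 for the large and -0.134 to -0.088 for the small subunit. The number of all genes called was 4179 to 5826 over the alternatives with 6 libraries.

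Signs of single members turned under few settings. Among the members named, the log2 fold change with the GC and length correction was 0.03 for Rpl13, 0.01 for Rpl13a, 0.02 for Rpl19, 0.02 for Rpl3, 0.0034 for Rpl31, 0.07 for Rpl34, 0.04 for Rpl35a, 0.03 for Rpl37, 0.01 for Rplp1, 0.01 for Rps13, 0.04 for Rps14, 0.08 for Rps15, 0.02 for Rps18, 0.05 for Rps28, 0.05 for Rps29 and 0.02 for Rps7. With that correction and without sgControl library 3 only Rpl13a turned, at 0.01. Over single libraries left out, Rpl18 ran from -0.08 to 0.01 (0.00097 without sgControl library 1), Rpl3 from -0.07 to 0.01, Rpl41 from -0.06 to 0.05 and Rps27a from -0.02 to 0.4. Rpl41 was -0.01 with upper-quartile scaling. Of the values with a turned sign none passed the test except Rpl41 without sgControl library 3, with edgeR adjusted p = 0.00577.

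With the replicate number as a block, 49 members were called lower and 5481 of all genes were called, and the median was -0.105; Rpl21, Rpl4 and Rps15a were lost and Rpl8 and Rps28 gained. The numbers did not pair the libraries: deviations of same-numbered libraries correlated at 0.0255, -0.0568 and -0.096. Among the members, depth limits Rpl24 most, at 10 to 20 counts a library.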
